A study of Oryctolagus cuniculus with 4 samples.

Results

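KRT7, KRT15, KRT17 and KRT18 were followed in single-cell RNA sequencing data from the bladder mucosa of New Zealand rabbits. These are 4 of the 18475 genes in the count tables, taken by their symbols, with the Ensembl identifiers ENSOCUG00000002632 (KRT7), ENSOCUG00000013123 (KRT15), ENSOCUG00000029569 (KRT17) and ENSOCUG00000027691 (KRT18), and each symbol had 1 row. A further 27 keratins carry a symbol, and keratins without one were not analysed here. The 4 samples were the normal bladders Normal_1 and Normal_2, taken at homeostasis, and the injured bladders Injury_1 and Injury_2, taken on day 10 after a patch of mucosa had been cut out, when new urothelium had just closed the wound. Each sample was 1 droplet-based 3' library from pieces of mucosa digested with collagenase, so the libraries hold stromal, vascular and immune cells besides urothelium. The paper calls the samples biological replicates, so each was taken as 1 rabbit, with 2 rabbits per condition at a single time. The question was in which cells these keratins were detected, whether they occurred in the same cells, and whether their levels differed after injury.

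Keratins build the intermediate filaments of epithelial cells from pairs of an acidic and a basic chain. KRT7 is a basic keratin of simple and transitional epithelia and is found through the whole urothelium. KRT18 is the acidic keratin of simple epithelia. KRT15 and KRT17 are acidic keratins of basal cells in stratified epithelia, and KRT17 is best known as a keratin that skin switches on during wound healing and in inflammation. KRT5, the basic keratin of basal cells, and the uroplakins, the membrane proteins of umbrella and intermediate cells, were used to split the urothelium here, so that no split rested on the 4 keratins themselves.

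The 4 libraries held 28745017 to 47881609 unique molecular identifiers (UMIs, each standing for 1 captured RNA molecule), and 4308 to 6081 cells per library were kept. Any 2 libraries shared 4 to 12 cell barcodes. Cells were clustered without the genes that carry a keratin symbol. After sub-clusters led by genes of other cell types or low in UMIs had been set aside, 1211 of 21945 cells (5.52%) were epithelial-like, with 367 in Normal_1, 127 in Normal_2, 437 in Injury_1 and 280 in Injury_2. The 16 epithelial markers found in the files summed to between 1398 and 1714 CPM (UMIs of a gene per 1000000 UMIs of the cells named) in these cells, and none of the 16 was at 0 in any sample. Setting sub-clusters aside did not fall evenly on the libraries. Sub-cluster 6, led by S100A12, C1QA and PIGR, held 63 cells of Injury_1 and 35 of Injury_2, but 3 of Normal_1 and 2 of Normal_2. It had 252 CPM of the uroplakin UPK3B, the highest level among the sub-clusters. Its cells are missing from the main comparisons below. Keeping all sub-clusters was run as an alternative. Doublets were kept. Removing the 5% of cells with the highest doublet score was run as an alternative. Every level below is in CPM. A 3' UMI count depends on how well each transcript is captured and annotated, so levels are compared between cells and samples and not between the keratins.

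Most UMIs of KRT7, KRT15 and KRT18 were in the epithelial-like cells. Of all UMIs in kept cells, these cells held 82.6% to 90.6% for KRT7, 79.7% to 86.5% for KRT15 and 79.8% to 83.5% for KRT18 across the samples, and with the sub-clusters set aside for leading genes of other types or few UMIs the range was 89.2% to 97.6%. Fibroblast-like cells had 14.1 to 44.8 CPM of KRT15, against 1933 to 4867 CPM in epithelial-like cells of the same libraries. At a fixed 1000 UMIs per cell, a KRT15 UMI was found in 1.42% to 4.45% of fibroblast-like cells and a KRT18 UMI in 0.721% to 5.11%. The median depth was 5104 to 8559 UMIs per fibroblast-like cell. For KRT15 over KRT18, fibroblast- and endothelial-like cells had ratios of 2.69 and 2.64 in Injury_1 and 3.57 and 2.70 in Injury_2, where epithelial-like cells had 2.79 and 3.13. In Normal_1 they had 0.930 and 0.686 beside 1.18 in the epithelial-like cells, and in Normal_2 they had 2.11 and 0.605 beside 1.34. In both types the ratio was higher in the 2 injured libraries than in the 2 normal ones, as it was in the epithelium. Mast-like cells had more KRT15, at 216, 261, 263 and 128 CPM in Injury_1, Injury_2, Normal_1 and Normal_2, from 14, 31, 4 and 4 UMIs, and neutrophil-like cells of Injury_1 had 311 CPM from 34 UMIs. In Normal_1, KRT18 stood at 1101 CPM in neutrophil-like, 263 CPM in mast-like and 157 CPM in glial-like cells, against 1638 CPM in epithelial-like cells. In Injury_1, KRT18 stood at 119 CPM in neutrophil-like cells. The median depth of neutrophil-like cells was 699 UMIs. Whether UMIs outside the epithelium came from expression or from free RNA was not tested.

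KRT17 had another distribution. Epithelial-like cells held 64.2% of its UMIs in Normal_1 and 77.7% in Normal_2, but 10.3% in Injury_1 and 9.87% in Injury_2. In both injured libraries most of the remaining KRT17 UMIs were in T and NK-like cells, which are described further on.

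**Figure D1:**
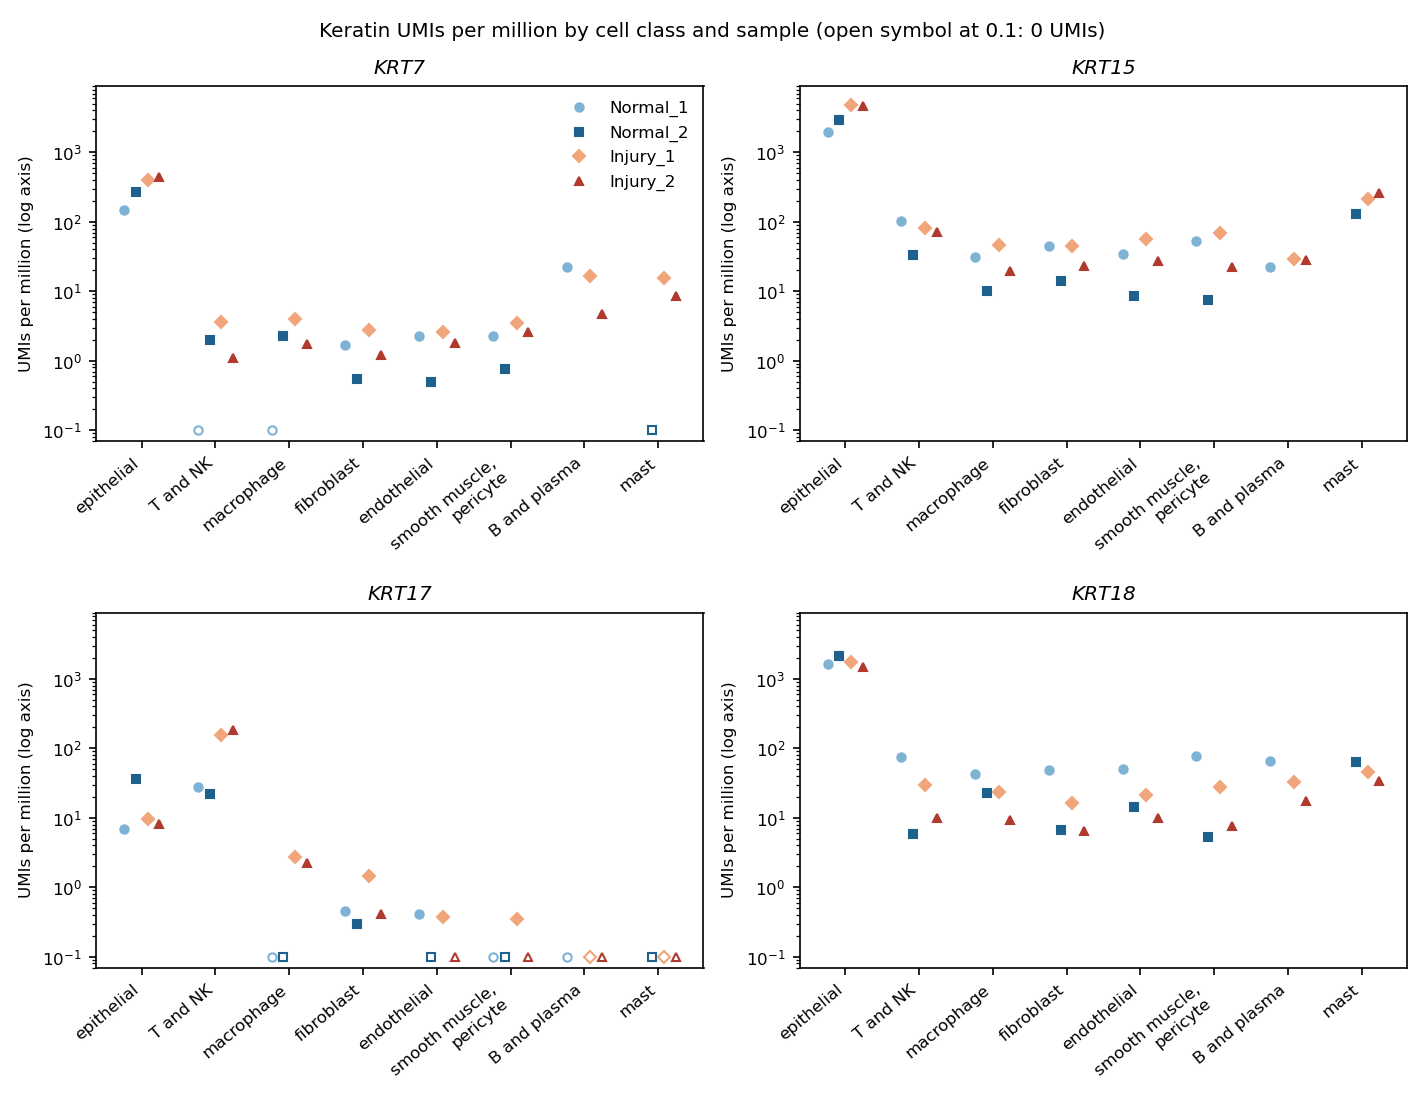
Level of each keratin (CPM, log axis) in the named cell classes, with 1 symbol per sample and at least 10 cells per symbol; open symbols at 0.1 mark a level of 0. KRT7, KRT15 and KRT18 stand highest in epithelial-like cells in every sample, whereas KRT17 stands highest in the T and NK-like cells of Injury_1 (155 CPM) and Injury_2 (182 CPM). Neutrophil- and glial-like cells are not shown.

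KRT15 was found in nearly every epithelial-like cell. KRT15 stood at 4867 CPM in Injury_1, 4578 CPM in Injury_2, 1933 CPM in Normal_1 and 2877 CPM in Normal_2, and every epithelial-like cell of 3 libraries and 99.2% of those of Normal_2 had at least 1 of its UMIs. KRT7 stood at 397 CPM in Injury_1, 438 CPM in Injury_2, 147 CPM in Normal_1 and 265 CPM in Normal_2. Both injured libraries lay above both normal libraries for these 2 keratins. With 2 against 2 samples, such a separation has an exact permutation p of 0.3333. The share of all genes that separate in this way is not given here. KRT18 stood at 1743 CPM in Injury_1, 1461 CPM in Injury_2, 1638 CPM in Normal_1 and 2140.5 CPM in Normal_2, and here the groups overlapped. KRT17 had 60, 39, 34 and 87 UMIs over all epithelial-like cells of Injury_1, Injury_2, Normal_1 and Normal_2, which gave 9.52, 8.14, 6.82 and 35.9 CPM. Normal_2 was the high sample for KRT17. A stricter limit of 10% mitochondrial UMIs per cell in place of 15% left 46 of its 127 epithelial-like cells, and the share of these with KRT17 at 1000 UMIs was then 0.0998% in place of 2.46%. The median share of mitochondrial UMIs in epithelial-like cells was 8.44% and 9.30% in the injured and 10.5% and 10.8% in the normal libraries, and its part in the keratin levels was tested only through this limit.

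KRT15 UMIs outnumbered KRT18 UMIs 2.79 to 1 in Injury_1 and 3.13 to 1 in Injury_2, and 1.18 to 1 in Normal_1 and 1.34 to 1 in Normal_2. This ratio is taken within each library, and the injured and normal values did not overlap. How many other pairs of genes separate in this way is not given here. With 2 rabbits a group, an exact two-sided permutation test cannot give a p below 0.3333.

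On UMI counts summed per rabbit, edgeR's quasi-likelihood test called 226 of 6855 genes (3.3%; 1.37% higher and 1.93% lower in injury) at an adjusted p under 0.05, and 0 of the 4 keratins. None of the 4 had an unadjusted p under 0.05 in edgeR, and with DESeq2 the unadjusted p of KRT17 was 0.022 and its adjusted p 0.181. Without the filter on low counts, edgeR called 942 of 11711 genes and KRT17 among them (-1.501, adjusted p = 0.00332). The edgeR fold changes were fitted after TMM scaling between libraries. The CPM levels above have no such scaling, so the 2 can differ in size. KRT7 was 1.63-fold higher in injury (log2 fold change 0.71, SE 0.39, adjusted p = 0.345) and KRT15 was 1.59-fold higher (0.67, SE 0.36, adjusted p = 0.339). KRT18 had a log2 fold change of -0.54 (SE 0.32, adjusted p = 0.384). KRT17 had one of -1.58 (SE 0.77, adjusted p = 0.294), which rested on Normal_2: without Normal_2 it was 0.25, without Normal_1 it was -2.44 and was called (adjusted p = 0.017). For KRT7, the log2 fold change was 1.39 and was called (adjusted p = 0.0392) without Normal_2, and 0.24 without Normal_1. On counts simulated with the same libraries, this design recovered 60.4% of genes changed 4-fold and 2% of those changed 2-fold.

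Detection was also compared at a fixed depth. With each cell thinned to 1000 UMIs, a KRT7 UMI was expected in 29.4% of epithelial-like cells in Injury_1 and 33.4% in Injury_2, and 13.2% in Normal_1 and 23.2% in Normal_2. For KRT15 the shares were 96.8%, 95.2%, 79.9% and 89.4% in the same order. Injury exceeded normal by 13.2 percentage points for KRT7 and by 11.3 for KRT15 (exact permutation p = 0.3333 for each, the smallest that 2 against 2 samples allow). KRT18 was expected in 77.8%, 71.1%, 75.9% and 84.6% of cells, and KRT17 in 0.664%, 0.889%, 0.618% and 2.46%. Without thinning, a KRT17 UMI was found in 5.49%, 5%, 5.45% and 14.2% of epithelial-like cells, at a median depth of 13100 to 20440 UMIs per cell. The share of endothelial-like cells with a KRT17 UMI was at most 0.225%, at a median depth of 4709 to 6421 UMIs.

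To see whether a keratin followed the layers of the urothelium, the epithelial-like cells were split by their UMIs of KRT5 and of UPK1B and UPK3B, the uroplakins analysed here. Cells with KRT5 and no uroplakin numbered 131 in Normal_1, 48 in Normal_2, 38 in Injury_1 and 54 in Injury_2. Cells with a uroplakin and no KRT5 numbered 109, 21, 312 and 116 in the same order. A cell with neither may hold transcripts that were not captured, so the split sorts cells by detection and not by layer.

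KRT17 was higher on the KRT5 side of this split. Its level in cells with KRT5 only was 33.0 CPM in Injury_1, 27.2 CPM in Injury_2, 12.2 CPM in Normal_1 and 56.3 CPM in Normal_2. In cells with a uroplakin only it was 4.93, 0, 1.43 and 2.73 CPM, from 20, 0, 2 and 1 UMIs, and a count of 0 in Injury_2 allows up to 1.73 CPM. The cells with KRT5 only stood above those with a uroplakin only in 4 of 4 rabbits. In edgeR with the rabbit as a block, 999 of 4876 genes (20.5%; 11.3% higher and 9.21% lower in cells with KRT5 only) differed between these 2 sets of cells, and KRT17 was 12.3-fold higher in cells with KRT5 only (log2 fold change 3.62, SE 0.48, adjusted p = 0.00063). KRT17 passed the filter on low counts only through the cells with KRT5 only, so the direction of this test was largely set beforehand. Its fold change rests on the few UMIs of the cells with a uroplakin only. KRT17 came from few cells: 11 of 38 cells with KRT5 only in Injury_1, 6 of 54 in Injury_2, 13 of 131 in Normal_1 and 12 of 48 in Normal_2 had any KRT17 UMI. A single cell gave 19 of the 29 UMIs in Injury_2 and 28 of the 57 in Normal_2. The markers of T and NK cells summed to 12.7, 8.43, 5.32 and 4.94 CPM in cells with KRT5 only and to 10.8, 5.18, 2.86 and 8.20 CPM in cells with a uroplakin only.

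KRT15 leaned the same way to a smaller degree. It had 5839.5, 6203, 2107 and 3067 CPM in cells with KRT5 only and 4415, 3844, 1699 and 2484 CPM in cells with a uroplakin only, in the order Injury_1, Injury_2, Normal_1, Normal_2. The difference was 1.51-fold (log2 fold change 0.60, SE 0.13, adjusted p = 0.0104, edgeR) and was seen in 4 of 4 rabbits. It was not called without the block of rabbits (0.60, adjusted p = 0.369) or with the split at 2 UMIs (0.74, adjusted p = 0.0564). KRT7 was 1.36-fold higher on the KRT5 side (0.44, SE 0.14, adjusted p = 0.0461). It had 523, 483, 137 and 296 CPM against 345, 410, 160.4 and 210.5 CPM, so Normal_1 went the other way, and the call was lost with DESeq2 (adjusted p = 0.076) and when Injury_1, Injury_2 or Normal_2 was left out (adjusted p = 0.231, 0.0802 and 0.177). KRT18 had 1465, 1082, 1368 and 1944 CPM in cells with KRT5 only and 1812, 1507, 1942 and 2258 CPM in cells with a uroplakin only. It was lower on the KRT5 side in 4 of 4 rabbits in CPM, but the fitted log2 fold change of -0.21 (SE 0.13) was not called (adjusted p = 0.284).

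**Figure D2:**
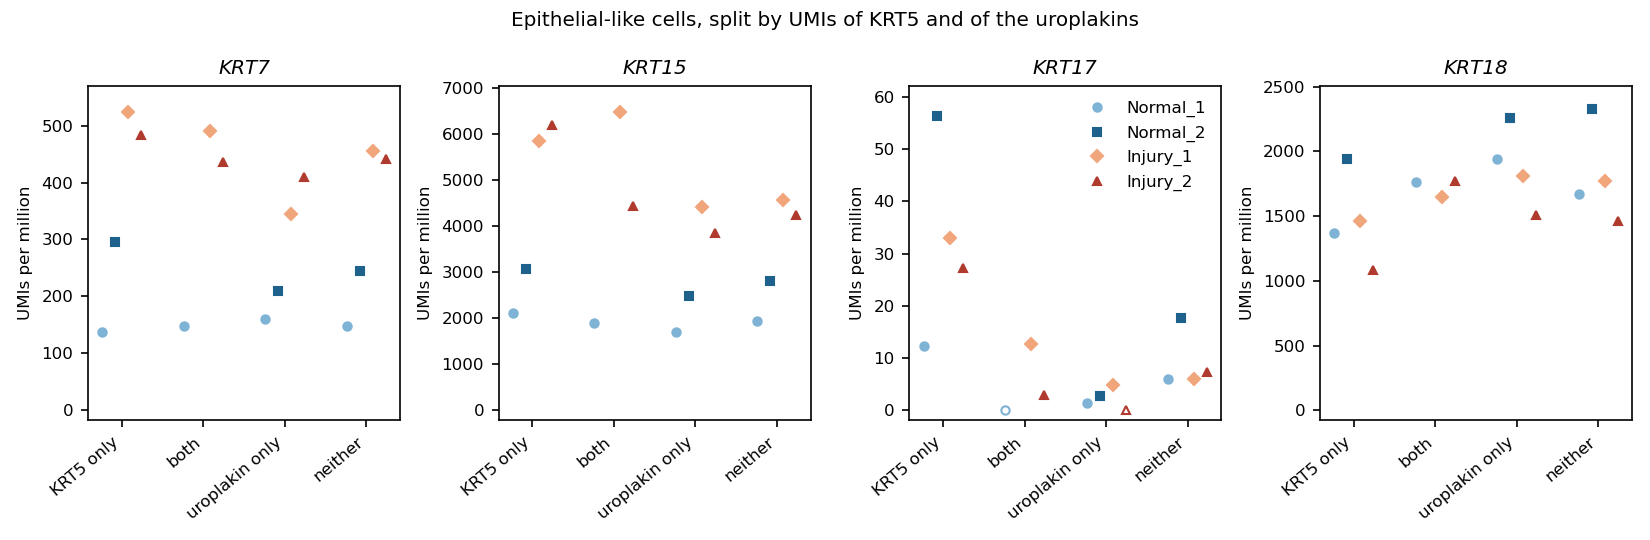
Level of each keratin (CPM) in epithelial-like cells split by detection of KRT5 and of the uroplakins UPK1B and UPK3B, with 1 symbol per sample and at least 10 cells per symbol. KRT17 is highest in cells with KRT5 only in each sample shown, and KRT7 and KRT15 of the injured samples lie above the normal samples in every set of cells. The sets come from the same 4 libraries, so they do not repeat the comparison independently. The share of all genes that separate in this way is not given here.

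The differences between injured and normal tissue had the same sign in each set of cells. KRT7 had log2 fold changes of 0.90 (SE 0.40), 0.90 (SE 0.32) and 0.90 (SE 0.36) in cells with KRT5 only, with a uroplakin only and with neither. KRT15 had 0.91, 0.82 and 0.61, and KRT18 had -0.70, -0.49 and -0.59. KRT17 could be tested in cells with KRT5 only, at -0.45 (SE 0.68), and had 1.01 there without Normal_2. Without Normal_2, KRT7 was called in all 3 sets (1.60, 1.26 and 1.49) and KRT15 in those with a uroplakin only (1.30) and with neither (1.08), and without Normal_1 KRT18 was called in cells with neither (-0.92). With the low-count filter, no block and all 4 libraries, edgeR called none in any set (lowest adjusted p = 0.144, KRT15 in cells with KRT5 only), where edgeR called 2.09%, 0.075% and 0.896% of all genes tested (0.864%, 0.0187% and 0.393% higher, 1.23%, 0.0562% and 0.503% lower), and DESeq2 called none of them either. KRT15 in cells with KRT5 only was called without the filter (0.87, adjusted p = 0.0302) and with the replicate block (0.94, adjusted p = 0.0487). At an unadjusted p under 0.05, edgeR had KRT15 in cells with KRT5 only (0.019) and KRT7 in the other 2 sets (0.0226 and 0.0338), where 1037 of 4631, 619 of 5336 and 626 of 4577 genes had such a p in the 3 sets. The sizes of the sets differed between libraries. Cells with a uroplakin only were the most frequent set in both injured libraries, cells with KRT5 only in Normal_1 and cells with neither in Normal_2. UPK3B, which helps to set the split, stood at 223 and 81.0 CPM in Injury_1 and Injury_2. It stood at 35.1 and 12.4 CPM in Normal_1 and Normal_2, over all epithelial-like cells. Whether the makeup of the epithelium or the UPK3B level per cell differed was not tested. Whether the contrast between KRT5 and uroplakin cells itself changed with injury was tested as an interaction, and no keratin was called: the log2 differences were 0.11 (SE 0.26) for KRT7, 0.04 (SE 0.28) for KRT15, -0.40 (SE 1.12) for KRT17 and -0.23 (SE 0.26) for KRT18, with adjusted p from 0.771 to 0.975 (edgeR, 50 of 4876 genes called).

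In fibroblast-, endothelial-, smooth muscle and pericyte- and macrophage-like cells the same signs were seen for KRT7, KRT15 and KRT18 where tested, at far lower levels. In endothelial-like cells the log2 fold changes were 0.68 (SE 0.72) for KRT7, 0.95 (SE 0.63) for KRT15 and -1.04 (SE 0.60) for KRT18. In fibroblast-like cells they were 1.14 (SE 0.72), 0.37 (SE 0.58) and -1.06 (SE 0.90). None was called in the fibroblast-, endothelial-, smooth muscle and pericyte- and macrophage-like cells (adjusted p from 0.411 to 0.908), where edgeR called 0%, 0.0265%, 0% and 0% of genes. At an unadjusted p under 0.05 it had 955, 627 and 723 genes in the fibroblast-, smooth muscle and pericyte- and macrophage-like cells, where DESeq2 called 258, 68 and 56. The signs also turned there when single libraries were left out: KRT18 in fibroblast-like cells had 0.83 without Normal_1, and KRT15 -0.18 without Injury_1. In smooth muscle and pericyte-like cells KRT15 was called without Normal_1 (2.55), and KRT18 without Injury_1 (-2.31) and without Normal_2 (-2.06).

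**Figure D3:**
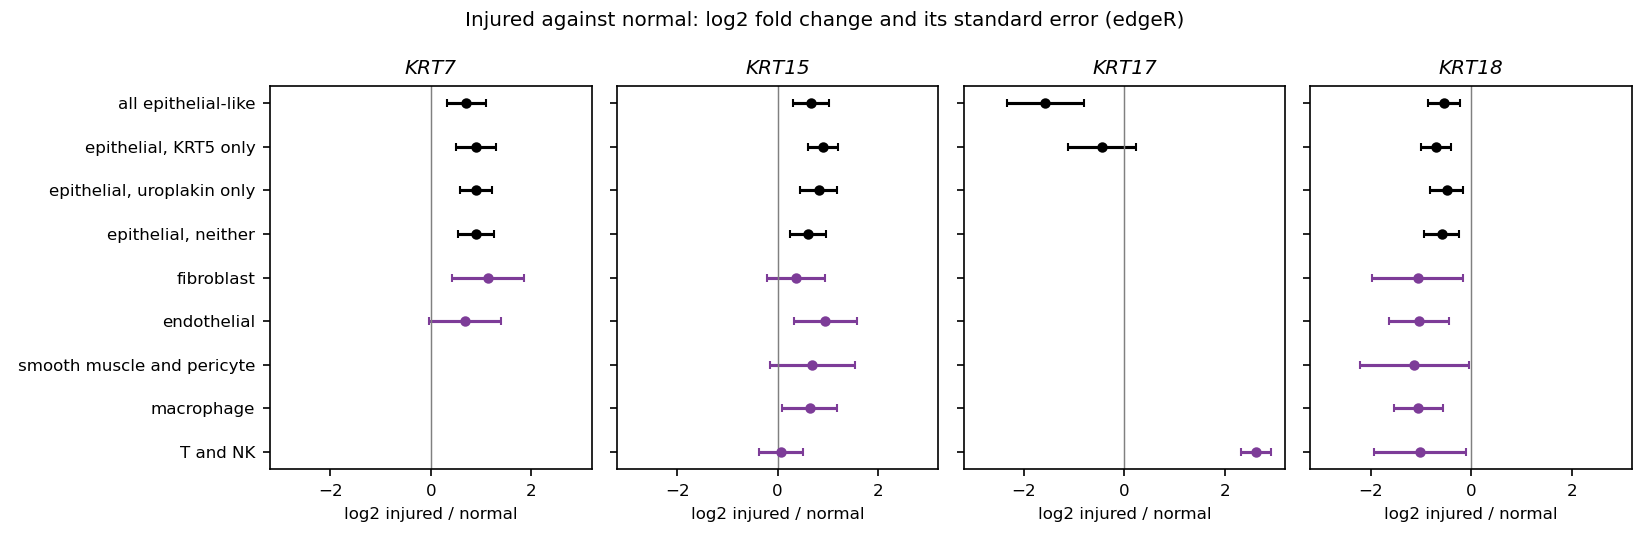
Log2 fold change of each keratin between injured and normal samples (point) and its standard error (bar) from edgeR on summed counts, in 9 sets of cells; sets in which a keratin was too low to be tested have no point. KRT7 and KRT15 lie above 0 and KRT18 below 0 in all sets shown, and KRT17 has opposite signs in epithelial-like and in T and NK-like cells.

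Clustering the epithelial-like cells again, without genes that carry a keratin symbol, gave 6 kept sub-clusters, and KRT17 varied most among them. Sub-cluster 4 (160 cells, led by PTHLH, ITGA2, KRT5 and LAMB3) had 38.7 CPM of KRT17 in Injury_1, 87.2 CPM in Injury_2, 11.97 CPM in Normal_1 and 184 CPM in Normal_2, where it held only 7 cells. Sub-cluster 2 (257 cells, led by FLRT3, RNF39 and CRISP3) had 0 KRT17 UMIs in every library, which allows up to 3.18, 4.28, 2.79 and 10.2 CPM. The same sub-cluster 2 had 2165, 1886, 2281 and 2604 CPM of KRT18, the highest of the 6 in each library, although sub-cluster 4 of Normal_2, with 7 cells, reached 2599.5 CPM. Its KRT15 was the lowest of the 6 in Injury_1 (3930 CPM), Injury_2 (3824 CPM) and Normal_1 (1645 CPM). Among sub-clusters 0 to 3, KRT7 ranged over 269 to 463 CPM in Injury_1, 388 to 479 CPM in Injury_2, 91.7 to 179 CPM in Normal_1 and 176 to 305 CPM in Normal_2, so the range of Normal_2 overlapped that of Injury_1. The proliferating sub-cluster 9, led by NUF2, HMMR and AURKB, had 23 cells in all, with 9, 2, 0 and 15 KRT17 UMIs in Injury_1, Injury_2, Normal_1 and Normal_2.

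Joint detection of the keratins was set beside the product of their single shares. At 1000 UMIs per cell, KRT15 and KRT18 were expected together in 75.3% of epithelial-like cells in Injury_1 and 67.6% in Injury_2, and 60.8% in Normal_1 and 76.1% in Normal_2. The product of their single shares was 75.3%, 67.6%, 60.6% and 75.7%. KRT7 and KRT18 were found together in 23.1%, 23.7%, 10.2% and 19.7% of cells, with products of 22.8%, 23.8%, 10.0% and 19.6%. KRT7 and KRT15 were found together in 28.7%, 32.1%, 10.6% and 20.6%, with products of 28.4%, 31.8%, 10.6% and 20.7%. Where KRT15 was found in nearly every cell, as in the injured libraries, the joint share cannot lie far from the product, so it says little about association there. The log2 odds ratios averaged 0.17 ± 0.22 (SD, n = 4) for KRT15 and KRT18, 0.06 ± 0.06 for KRT7 and KRT18 and 0.26 ± 0.32 for KRT7 and KRT15. KRT7 and KRT15 had log2 odds ratios of 0.59 and 0.46 in the injured and 0.06 and -0.08 in the normal libraries.

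**Figure D4:**
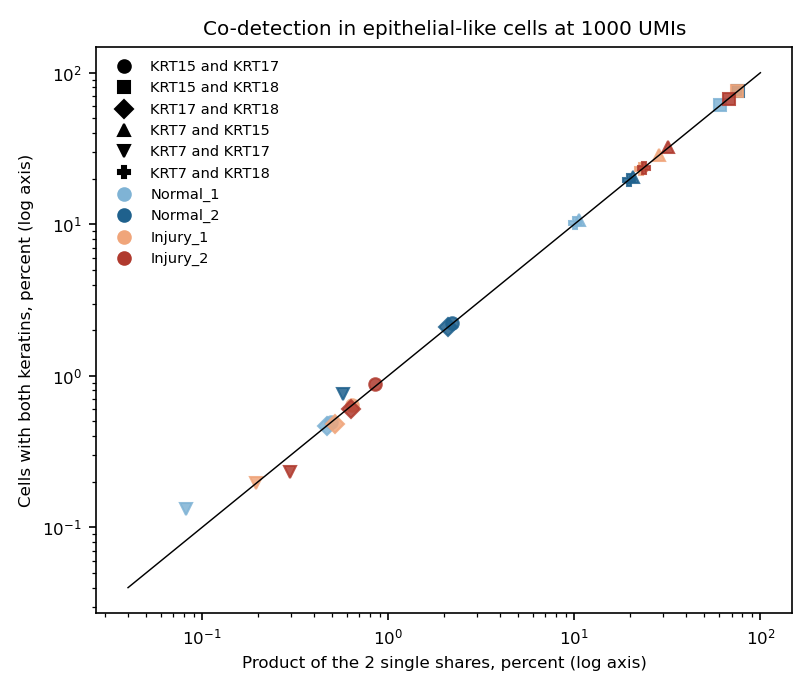
Expected share of epithelial-like cells with a UMI of both keratins at 1000 UMIs per cell (vertical, log axis) against the product of the 2 single shares (horizontal, log axis), with 1 symbol per pair and sample; the line marks equality. Pairs without KRT17 lie on or near the line in all 4 samples. KRT7 with KRT17 lies farthest from it, at low shares (0.131% in Normal_1 against a product of 0.0818%).

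Levels across cells, as a description, also differed between libraries for KRT7 and KRT15. The Pearson correlation of log2 levels over the cells of a library was 0.38 in Injury_1 (437 cells) and 0.36 in Injury_2 (280 cells), and 0.01 in Normal_1 and -0.07 in Normal_2. Within the cells with KRT5 only it was 0.47 and 0.34 in the injured and 0.03 and -0.20 in the normal libraries. KRT7 and KRT18 had correlations between -0.04 and 0.11 over the 4 libraries, and KRT15 and KRT18 between 0.02 and 0.30. KRT7 was low in the normal libraries (a median of 2 UMIs per cell in Normal_1 and 4 in Normal_2, against 4 and 6 in Injury_1 and Injury_2), and the part of counting noise in these values was not tested.

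The combination found most often was KRT15 with KRT18 and no KRT7 or KRT17, in 52.3% (Normal_1), 57.2% (Normal_2), 52.4% (Injury_1) and 44.4% (Injury_2) of epithelial-like cells at 1000 UMIs. KRT7, KRT15 and KRT18 together were expected in 8.11% and 17.0% of cells in the normal and 22.5% and 22.6% in the injured libraries. All 4 keratins were expected in at most 0.582% of cells, in Normal_2. Cells with KRT18 as the only one of the 4 made up 1.89% and 2.52% in the injured and 12.996% and 6.35% in the normal libraries. Cells with none of the 4 made up 0.628% and 0.975% in the injured and 4.42% and 1.53% in the normal libraries.

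KRT17 with KRT15 or KRT18 rested on small counts. Among cells with a KRT17 UMI at 1000 UMIs, KRT15 was expected in 96.9%, 98.9%, 79.9% and 90.04% and KRT18 in 72.1%, 68.3%, 76.0% and 84.7%, beside 96.8%, 95.2%, 79.9% and 89.4%, and 77.8%, 71.1%, 75.9% and 84.6%, of all epithelial-like cells. KRT7 was expected in 29.4%, 26.2%, 21.3% and 30.8% of them.

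KRT17 was also found in T and NK-like cells. There were 101 of these cells in Normal_1, 109 in Normal_2, 642 in Injury_1 and 349 in Injury_2, in 4 clusters. Of 9 T and NK markers 4 were in the files, and these summed to 1055 to 1622 CPM, against 4.01 to 13.2 CPM in epithelial-like cells, while the 16 epithelial markers summed to 13.8 to 34.9 CPM. The T and NK-like cells held 474 of the 581 KRT17 UMIs of Injury_1 (81.6%) and 334 of the 395 of Injury_2 (84.6%), but 10 of 53 in Normal_1 (18.9%) and 11 of 112 in Normal_2 (9.82%). The level was 155 CPM in Injury_1, 182 CPM in Injury_2, 27.5 CPM in Normal_1 and 21.6 CPM in Normal_2, so both injured libraries lay above both normal ones. The share of all genes that separate in this way in these cells is not given here. The comparison of KRT17 in T and NK-like cells was added after its level had been seen. In edgeR, KRT17 was 6.15-fold higher in injured samples (log2 fold change 2.62, SE 0.29) with an adjusted p of 0.0523, just over the threshold, where 2 of 4647 genes (0.043%) were called. DESeq2 gave an adjusted p of 5.12e-05 with 71 genes called, and edgeR with no filter on low counts gave 1.36e-10 with 360 of 10237 genes called. Without Injury_1 or Injury_2 the adjusted p was 0.248 and 0.332, and without Normal_1 or Normal_2 it was 0.00702 and 0.0147. The difference between T and NK-like and epithelial-like cells in their response was itself tested with the rabbit as a block: the injured-to-normal change of KRT17 was 4.05 log2 units higher in T and NK-like cells (SE 0.60, adjusted p = 0.00363, edgeR, 152 of 7051 genes called). Without Normal_2 it was 2.26 and was not called (adjusted p = 0.10), and with any other single library left out it was 3.74 to 5.13 and was called. KRT7, KRT15 and KRT18 were not called with all 4 libraries (adjusted p = 0.956, 0.635 and 0.818).

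In the injured libraries, most KRT17 UMIs of the T and NK-like cells lay in 2 of their 4 clusters, while in the normal libraries cluster 10 held 8 of 10 in Normal_1 and 7 of 11 in Normal_2. Cluster 18 had among its leading genes IL1RL1, the receptor of interleukin 33, CTLA4, an inhibitory receptor, CD2, FOXP3, the transcription factor of regulatory T cells, TNFRSF9 and ICOS. KRT17 was also among them, although no gene with a keratin symbol was used to form the clusters. Cluster 18 held 104 cells in Injury_1 and 69 in Injury_2, and 3 in Normal_1 and 6 in Normal_2, with 399, 419, 204 and 34.9 CPM of KRT17 from 224, 147, 2 and 1 UMIs. Cluster 22, led by genes of cell division such as AURKB, NCAPG and BUB1, held 78, 32, 3 and 3 cells and had 178, 226, 0 and 73.2 CPM from 180, 148, 0 and 3 UMIs. The normal libraries had too few of these cells for a comparison within either cluster. Of the T and NK-like cells, clusters 18 and 22 made up 16.2% and 12.1% in Injury_1 and 19.8% and 9.17% in Injury_2, against 2.97% and 2.97% in Normal_1 and 5.50% and 2.75% in Normal_2. The makeup of the class moved with the condition, and its part in the class difference was not separated from a change within cells.

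Cluster 10 was large enough in every library for a comparison within it. It was led by IL22, a cytokine that acts on epithelia, PRF1 and GZMH, genes of cytotoxic granules, and CXCR6. KRT17 stood at 48.6 CPM in Injury_1 (409 cells), 47.9 CPM in Injury_2 (210 cells), 36.2 CPM in Normal_1 (71 cells) and 18.4 CPM in Normal_2 (90 cells). The 1.86-fold difference (log2 fold change 0.90, SE 0.44) was not called (adjusted p = 0.553, edgeR), where 0 of 3245 genes were called, 337 had an unadjusted p under 0.05 and DESeq2 called 21. Cluster 20, led by IL9, had 36.2 and 42.7 CPM in the injured libraries from 7 and 6 UMIs, and 0 UMIs in the normal ones.

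**Figure D5:**
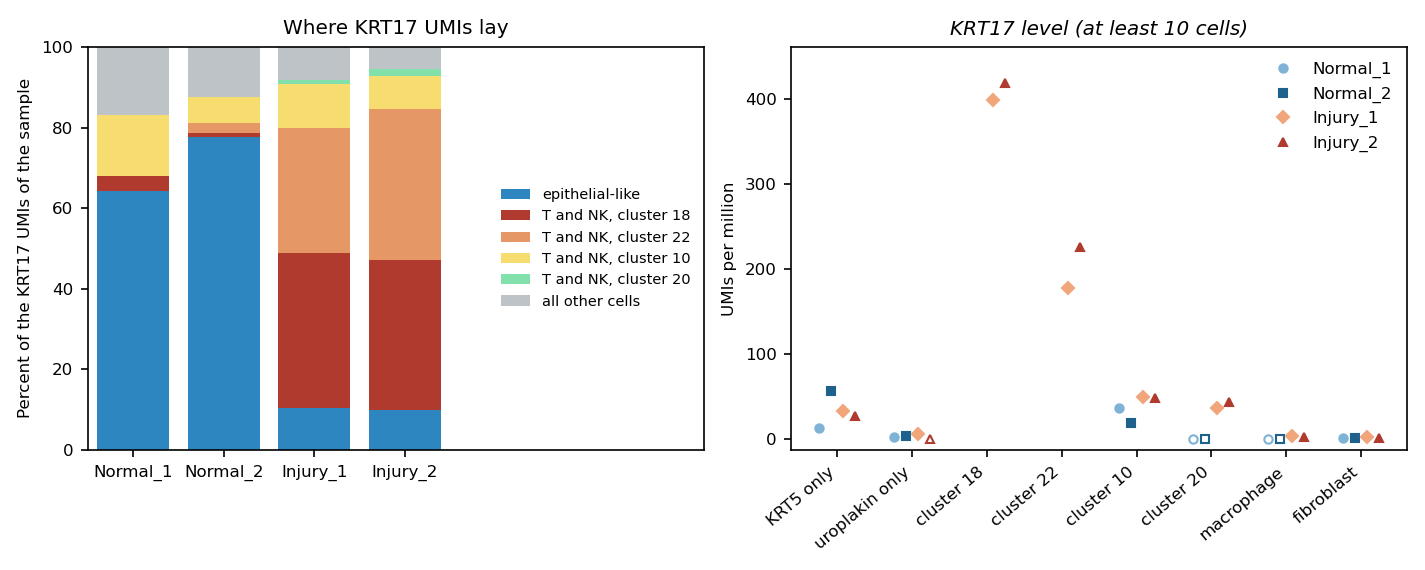
Left, percent of the KRT17 UMIs of each sample found in epithelial-like cells, in the 4 T and NK-like clusters and in all other cells. Right, KRT17 level (CPM) by set of cells and sample, for sets of at least 10 cells; clusters 18 and 22 of Injury_1 and Injury_2 stand at 178 to 419 CPM, above every epithelial set shown.

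KRT17 stood in another proportion to KRT15 in T and NK-like cells than in epithelial-like cells. There were 1.90 KRT17 UMIs per KRT15 UMI in the T and NK-like cells of Injury_1 and 2.55 in Injury_2, against 1.96 and 1.78 KRT17 UMIs per 1000 KRT15 UMIs in the epithelial-like cells. KRT15 stood at 81.6 and 71.3 CPM in the T and NK-like cells of the injured libraries and at 102 and 33.4 CPM in those of the normal libraries, and KRT18 at 30.02, 9.80, 74.2 and 5.90 CPM. At 1000 UMIs a KRT17 UMI was expected in 7.85%, 7.07%, 2.36% and 2.18% of T and NK-like cells, against at most 0.213% of macrophage-like and 0.110% of fibroblast-like cells. Without thinning, 123 of 642, 62 of 349, 4 of 101 and 8 of 109 T and NK-like cells had a KRT17 UMI. Leaving out the cells with the highest doublet scores left KRT17 in T and NK-like cells at 158, 189.9, 30.2 and 21.5 CPM in Injury_1, Injury_2, Normal_1 and Normal_2. Single cells weighed on some values: 1 cell held 61 of the 147 UMIs of cluster 18 in Injury_2, and 1 cell held 55 of the 148 of cluster 22.

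The T and NK-like cells were also split by FOXP3, without the clusters. In Injury_1, the 60 cells with a FOXP3 UMI had 446 CPM of KRT17 and the 582 without had 91.4 CPM. In Injury_2, 37 cells with FOXP3 had 351 CPM and 312 without had 125 CPM. At 1000 UMIs the shares of cells with KRT17 were 30.03% and 5.57% in Injury_1 and 16.8% and 5.91% in Injury_2. The median depth was 6993 and 7926 UMIs in cells with FOXP3 and 3128 and 3346 UMIs in those without. KRT15 was lower with FOXP3 than without in both, at 53.1 against 87.8 CPM in Injury_1 and 43.3 against 80.8 CPM in Injury_2. Each normal library had 1 cell with a FOXP3 UMI. FOXP3 and 5 other genes were chosen for such splits after the clusters had been seen, and among them IL1RL1 gave 354 against 49.4 CPM in Injury_1 and 335 against 38.1 CPM in Injury_2, but 47.3 against 16.9 CPM in Normal_1 and 13.8 against 22.9 CPM in Normal_2, from 6, 4, 1 and 10 UMIs. GZMH gave 95.6 against 183 CPM in Injury_1 and 64.6 against 192 CPM in Injury_2, and 212 against 8.41 CPM in Normal_2, where 5 cells with GZMH held 7 of the 11 UMIs. PRF1 gave 159 against 152 CPM in Injury_1 and 394 against 114 CPM in Injury_2. No genome or annotation of the files' build was used, so whether the KRT17 gene model overlaps another transcript, or shares reads with a related keratin, was not tested.

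The other keratins and the proteins that anchor keratin filaments were counted beside the members. Of the 27 other keratins with a symbol, 9 could be tested between injured and normal epithelial-like cells, and 0 were called by edgeR, with a median log2 fold change of 0.37 beside 0.01 over all genes. KRT16, a wound keratin of skin and mouth, had 2.76 (SE 0.94, adjusted p = 0.16) and KRT78 2.50 (SE 0.54, adjusted p = 0.0588); both were singled out after their values were seen, as were DSC2 and DST among the linkers. Between KRT5 and uroplakin cells, 4 were tested with KRT5 itself left out: KRT1 was 4.63-fold higher on the KRT5 side (adjusted p = 0.000467), and KRT12 and KRT23 were lower there, with log2 fold changes of -3.10 (adjusted p = 0.000805) and -2.22 (adjusted p = 0.000312). KRT12 is best known from the cornea. Of 8 tested linkers of keratin filaments, ITGA6, a hemidesmosome integrin (log2 fold change 1.47), and PKP1, a desmosomal plaque protein (1.32), were higher on the KRT5 side, and PKP4, a plakophilin relative (-0.93), was lower (adjusted p = 0.00028, 0.0219 and 0.0295). Between conditions 0 of 8 linkers passed in edgeR, with DSC2 at 0.96 (adjusted p = 0.114) and DST at -0.92 (adjusted p = 0.119). Of 12 tested transcription factors of the urothelium, FOSL1 (1.37) and EHF (0.56) were higher and GRHL3 (-1.25) and GATA3 (-1.08) lower on the KRT5 side, and 0 of 15 passed between conditions. The called members on the 2 sides were 3 of 4 other keratins, 3 of 8 linkers and 4 of 12 factors, where 20.5% of all genes were called. Between conditions, edgeR gave an unadjusted p under 0.05 to 2 of 9 other keratins, 5 of 8 linkers and 6 of 15 factors, and DESeq2 called 2, 1 and 2 of them, beside 1444 and 466 of all 6855 genes. Of 5 stress and dissociation genes tested, 0 passed between conditions in edgeR or DESeq2 and 0 had an unadjusted p under 0.05, while JUN (0.60) was higher and ATF3 (-0.56) lower on the KRT5 side.

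Genes whose levels ran most like a member were looked up over 15 sums of sample and epithelial sub-cluster (Pearson correlation of log2 CPM, 2737 genes). KRT7 ran with KRT15 (0.91), and the genes closest to KRT7 were ATXN2L, PPP4C and AKR1B10 (0.95, 0.94 and 0.93). KRT15 was closest to BAK1, S100A14 and PLGRKT (0.97 for each). KRT17 had correlations of 0.92 with COL8A1 and 0.89 with YWHAH. It averaged only 8.75 CPM over these sums, under the 20 CPM asked of the other genes. Sums of under 20 cells were left out, among them sub-cluster 4 of Injury_2 (15 cells) and of Normal_2 (7 cells). KRT18 was closest to ACAP1, LASP1 and C16orf72 (0.79, 0.77 and 0.75) and had a correlation of 0.03 with KRT15. Over 33 sums of sample and cell class, KRT7, KRT15 and KRT18 ran together (0.90 to 0.93), while KRT17 had 0.17, 0.28 and 0.17 with them and was closest to PRMT7, GPA1 and SMC2 (0.86, 0.80 and 0.80). These sums share libraries, and the correlations describe them only.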

How the data were processed

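Single-cell suspensions of bladder mucosa from 4 rabbits were sequenced as 1 droplet-based 3' library each. The deposited matrices hold raw UMI counts per gene and barcode, made by the authors with cellranger 6.0.1 according to the submitters' processing notes; the genome build is not given in the sources used here. The 4 libraries had 28745017 to 47881609 UMIs, which limits the precision, and intervals and floors cover counting error only. The 4 keratins, the gene lists and the named genes were chosen with earlier results of these data known. The 4 keratins were named in every comparison; other keratins, linkers and urothelial factors were named where they passed the test or were among the 5 of their list with the highest mean CPM, with the exceptions given beside them, and for each keratin the 3 genes with the highest correlation were named, except 1 that is not reported here.

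Barcodes under 500 UMIs, under 200 genes or over 15% of UMIs from mitochondrial genes were removed (python 3.11.15, scanpy 1.11.5). Cells were integrated and clustered in Seurat 5.3.0 (R 4.3.3) without genes that carry a keratin symbol. This used 30 principal components at resolution 0.8, and classes were named from marker lists. Epithelial-like cells were clustered again, and sub-clusters led by genes of other classes or low in UMIs were set aside. Detection was given as the expected share at 1000 UMIs per cell, leaving out shallower cells. A count of 0 was given a floor of 3 UMIs. UMI counts were summed per sample and tested with edgeR 4.0.16 (quasi-likelihood, filterByExpr, TMM), with Benjamini-Hochberg adjustment at 0.05 over all genes tested, and with the rabbit as a block where sets of cells of the same rabbit were compared. DESeq2 1.42.0 was an alternative. The tests of T and NK-like cells were added after their KRT17 level had been seen. The sample titles give only a condition and a number, and the paper calls the samples biological replicates, so each was taken as 1 rabbit. The p-values measure the spread between these libraries, including technical spread.

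On counts simulated from the real libraries, the epithelial test made 66 calls with 6 false ones over 6686 genes, and the test of KRT5 against uroplakin cells made 161 calls with 1 false one over 4776 genes and recovered 98.9% of 4-fold and 69.5% of 2-fold changes. Alternatives covered the scaling, the filter, the tool, the block, each library left out, the mitochondrial limit, doublets, the clustering, a marker gate, the UMI minimum for the split and the thinning depth.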

Additional observations from a re-analysis of the deposited data

Results flagged for a closer look

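Among 9 quantities of the 4 samples checked for a sample standing apart, 1 did. The log2 odds ratio of co-detection of KRT15 and KRT17 in epithelial-like cells was 2.24 in Injury_2, against 0.05 in Injury_1, 0.00034 in Normal_1 and 0.10 in Normal_2. Chance gives about 1 such case in 20 groups. KRT17 came from 14 epithelial-like cells of Injury_2, and 1 of them held 19 of the 39 UMIs.

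The change of KRT17 between injured and normal samples differed between T and NK-like and epithelial-like cells by 4.05 log2 units (SE 0.60, adjusted p = 0.00363, edgeR interaction term, 4 rabbits). Without Normal_2 the difference was 2.26 and was not called (adjusted p = 0.10). The interaction was tested after the KRT17 level had been seen. The makeup of the T and NK-like cells differed between conditions, and its part in this difference was not tested.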

How the results depend on the processing

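Limits. With 2 rabbits a condition, 1 library decided several values, and KRT17 rested on 34 to 87 epithelial UMIs a library. Of all alternatives computed, 543 in number, those that moved a result are given here, and the cause was not tested.

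Injured against normal epithelial-like cells, 226 genes called: 942 without the filter on low counts, 466 by DESeq2, 445 with the replicate block, 93 with the mitochondrial limit of 10%, 149 with the marker gate, 382 at clustering resolution 0.4 (which left 756 epithelial-like cells), 117 with all sub-clusters kept and 145 to 532 with a library left out. KRT17 had -1.501 without the filter (called, adjusted p = 0.00332) and -2.44 to 0.25 with a library left out, and turned sign without Normal_2; KRT7 had 0.24 to 1.39 with a library left out, called without Normal_2. KRT15 and KRT18 kept their direction and were not called in any of 14 alternatives.

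KRT5 against uroplakin cells, 999 genes called: 67 without the block of rabbits, 502 at the mitochondrial limit of 10%, 287 with the split at 2 UMIs and 477 to 1005 with a library left out. KRT17 was called in all 14 alternatives that tested it, with 3.15 to 4.77. In the main setting it passed the filter on low counts only through the cells with KRT5 only. These calls are therefore no independent support for its direction. At the mitochondrial limit of 10% KRT17 was not tested. KRT7 lost its call without the filter (0.43), by DESeq2 (0.45), without the block (0.48), at the mitochondrial limit of 10% (0.28), with all sub-clusters kept (0.43) and with the split at 2 UMIs (0.51), and had 0.37 to 0.54 with a library left out. KRT15 lost it without the block (0.60) and with the split at 2 UMIs (0.74). KRT18 had 0.0038 at resolution 0.4.

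Calls without the filter, by DESeq2 and with the replicate block, then the range with a library left out: cells with KRT5 only (97 called) 671, 206, 484 and 72 to 625; uroplakin only (4) 278, 68, 18 and 52 to 638; neither (41) 297, 67, 11 and 77 to 546; fibroblast-like (0) 494, 258, 217 and 0 to 31; endothelial-like (2) 0, 55, 69 and 0 to 17; smooth muscle and pericyte-like (0) 187, 68, 151 and 76 to 787; macrophage-like (0) 348, 56, 224 and 7 to 265, with 2 under DESeq2 size factors; T and NK-like (2) 360, 71, 14 and 0 to 165; cluster 10 (0) 140, 21, 30 and 0 to 8.

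KRT17 in T and NK-like cells was called without the filter (2.76), by DESeq2 (2.60) and with the replicate block (2.62, adjusted p = 0.0318), and had 2.44 to 2.79 with a library left out, called without Normal_1 or Normal_2 and not without Injury_1 or Injury_2 (adjusted p = 0.248 and 0.332). Its change there minus that in epithelial-like cells (4.05) was 2.26 to 5.13 with a library left out, a check added after seeing the data, and lost its call without Normal_2. KRT15 in cells with KRT5 only was called with the block (0.94) and without the filter (0.87). The sample titles do not say that equal numbers pair the rabbits, so the numbers were not taken to pair them. Same-numbered samples correlated at 0.0753 in their deviations. With 2 samples a group this is a single value, which cannot decide the question. Without Normal_2, KRT7 was called in all 3 sets of epithelial-like cells (1.60, 1.26 and 1.49), and KRT15 in those with a uroplakin only and with neither (1.30 and 1.08).

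Signs turned, none of them in a called value, when 1 library was left out, with these ranges: KRT17 in cells with KRT5 only, -1.29 to 1.01 (turned without Normal_2); KRT15 in fibroblast-like cells, -0.23 (without Normal_2; -0.18 without Injury_1) to 1.32; in smooth muscle and pericyte-like cells, -0.32 (without Injury_1; -0.13 without Normal_2) to 2.55; in macrophage-like cells, -0.016 (without Injury_1) to 1.54; in T and NK-like cells, -0.49 (without Normal_2) to 1.01; in cluster 10, -0.28 (without Injury_1; -0.17 without Normal_2) to 1.32. KRT18 turned without Normal_1 in fibroblast-like (-1.89 to 0.83), smooth muscle and pericyte-like (-2.31 to 1.69) and T and NK-like cells (-2.03 to 1.60) and in cluster 10 (-1.498 to 1.90).

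The injured-minus-normal share was 19.1 points for KRT7 and 4.12 for KRT15 at 2000 UMIs, and 0.394 for KRT15, -4.57 for KRT17 and -0.229 for KRT18 without thinning. The mean log2 odds ratio was 0.80 for KRT15 and KRT18 with the marker gate, and 0.17 for KRT17 and KRT18 and -0.39 for KRT7 and KRT17 at the mitochondrial limit of 10%; without thinning it could be given for KRT7 and KRT17 only.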
